A study of Mus musculus with 18 samples.

Results

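AP-1 is a family of transcription factors built from pairs of basic leucine zipper (bZIP) proteins, and the 10 genes described here code for JUN proteins (*Jun*, *Junb*, *Jund*), FOS proteins (*Fos*, *Fosb*, *Fosl1*, *Fosl2*) and related partners (*Atf3*, *Batf*, *Maff*). They were picked by gene symbol out of 34896 genes in a table of expression in mouse bone marrow cells, and all 10 were found there. JUN proteins can pair with one another or with FOS proteins, whereas FOS proteins bind DNA only after pairing with another bZIP protein. Several of these genes are immediate-early genes, which cells switch on within minutes of a growth factor, an inflammatory signal, stress or handling, through MAP kinases and without new protein synthesis. In neutrophils AP-1 acts on genes of inflammation, adhesion and survival.

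The cells came from C57BL/6 mice aged 6 to 12 weeks. Granulocyte-monocyte progenitors (GMP), neutrophil precursors (preNeu) and mature neutrophils (matNeu) were sorted from the bone marrow of wild-type (WT) mice by surface proteins, and expression was measured by RNA-seq in 3 libraries per cell type. Genotypes were compared for chromatin binding only, with 1 library from WT GMPs and 1 library from GMPs of *Gfi1*-/- mice, which lack the transcriptional repressor GFI1. That assay was ChIP-seq for CHD4, the ATPase of the NuRD chromatin remodeling complex, and 1 library per cell type from WT cells was used for the histone mark H3K4me2, found at promoters and enhancers. An ATAC-seq list of open chromatin, deposited with 16307 identical peaks for preNeu and matNeu, was used as 1 list without a cell type. Nothing in the labels says that libraries of a group came from separate mice, so the p-values measure the spread between libraries, which may be technical.

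The cell type given in the labels disagreed with the sample title for 13 of 18 samples, among them all 9 RNA-seq libraries, and the titles were followed. Expression was given as TPM, a unit of transcript abundance that corrects for transcript length and sums to the same total in each library, so that levels can be compared between genes but the read depth is unknown. The summed level of 6 GMP marker genes was 45267 to 47154 TPM in GMP libraries, 8320 to 9360 in preNeu and 9.32 to 32.7 in matNeu. For 6 preNeu markers the highest sums were in preNeu (105723 to 134153 TPM), and for 6 matNeu markers in matNeu (27308 to 30886 TPM). Among markers of other cells, 4 of 5 B cell genes were higher in matNeu than in GMP (summed level 61.2 to 133 against 78.9 to 94.5 TPM, with 2 of the 5 listed at 0 in every GMP library). The other, *Cd79b*, was lower in matNeu (means of 86.4 TPM in GMP and 35.4 TPM in matNeu) and made up most of the GMP sum. Monocyte and macrophage markers summed to 3835 to 4621 TPM in GMP, 1685 to 2215 in preNeu and 1130 to 1495 in matNeu. Most of these sums was *Ly6c2* (means of 2962, 1866 and 937 TPM). From preNeu to matNeu 2 of the 6 markers rose, as most members did, 3 fell and 1 was not called. Those that fell were *Ly6c2*, *Ccr2* (means of 127, 3.61 and 0.573 TPM in GMP, preNeu and matNeu) and *F13a1* (906, 13.3 and 3.06 TPM). *Csf1r*, the receptor of a macrophage growth factor, had means of 204, 13.8 and 304 TPM in GMP, preNeu and matNeu (log2 change from preNeu to matNeu 4.47, adjusted p = 2.37e-07 by limma), the same order of cell types as *Jun*. *Adgre1*, which codes for the macrophage surface protein F4/80, had 12.3, 11.4 and 83.8 TPM. Dendritic cell markers summed to 22.3 to 28.9 TPM in GMP, 110 to 134 in preNeu and 95.7 to 151 in matNeu, and 3 of 4 were higher in matNeu than in GMP (*Cd74*, *H2-Aa*, *Siglech*). The remaining marker, *Flt3*, was lower, with means of 12.4 TPM in GMP and 0.907 TPM in matNeu. Natural killer cell markers summed to at most 6.37 TPM in any library and T cell markers to at most 15.2 TPM. Eosinophil markers summed to 858 to 1121 TPM in GMP, 35.9 to 42.0 in preNeu and 31.6 to 49.0 in matNeu. Basophil and mast cell markers summed to 412 to 526, 96.5 to 152 and 1.73 to 6.50 TPM. Erythroid markers summed to at most 16.4 TPM and megakaryocyte markers to at most 49.2 TPM. The part of all these other cells in the results below was not tested. Because sorted populations were measured in bulk, fewer cells that transcribe a gene and less RNA per cell cannot be told apart.

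The promoters of 4 members are shown because the genes changed most, or had a CHD4 peak. Each run holds the 250 bases before the start of the RefSeq gene on GRCm38, read 5′ to 3′ along the gene. The positions are chr4:95052223-95052472 (minus strand) for *Jun*, chr12:85473640-85473889 (plus strand) for *Fos*, chr1:191183334-191183583 (minus strand) for *Atf3* and chr8:84978749-84978998 (minus strand) for *Junb*. Capitals mark matches to the AP-1 site TGANTCA, the cAMP response element (CRE) TGACGTCA, its variant TGACATCA, the CRE core TGACGT, the GFI1 core AAATCA, the SPI1 site GAGGAAGT, the CArG box or the TATA box TATAAA, all searched on both strands.
Jun promoter: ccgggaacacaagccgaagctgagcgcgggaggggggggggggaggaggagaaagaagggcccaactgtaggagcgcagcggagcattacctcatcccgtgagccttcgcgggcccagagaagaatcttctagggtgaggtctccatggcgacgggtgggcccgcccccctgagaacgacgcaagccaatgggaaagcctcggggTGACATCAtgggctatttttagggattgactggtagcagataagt
Fos promoter: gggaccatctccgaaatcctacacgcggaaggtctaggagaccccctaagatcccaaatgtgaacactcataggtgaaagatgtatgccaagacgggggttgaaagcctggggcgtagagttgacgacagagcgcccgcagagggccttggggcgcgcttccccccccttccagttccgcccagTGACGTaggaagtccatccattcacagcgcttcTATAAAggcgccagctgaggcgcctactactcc
Atf3 promoter: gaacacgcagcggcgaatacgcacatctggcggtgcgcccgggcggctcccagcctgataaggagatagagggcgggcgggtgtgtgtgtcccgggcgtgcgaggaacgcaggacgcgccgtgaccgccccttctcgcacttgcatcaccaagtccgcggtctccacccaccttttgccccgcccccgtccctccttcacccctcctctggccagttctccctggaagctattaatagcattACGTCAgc
Junb promoter: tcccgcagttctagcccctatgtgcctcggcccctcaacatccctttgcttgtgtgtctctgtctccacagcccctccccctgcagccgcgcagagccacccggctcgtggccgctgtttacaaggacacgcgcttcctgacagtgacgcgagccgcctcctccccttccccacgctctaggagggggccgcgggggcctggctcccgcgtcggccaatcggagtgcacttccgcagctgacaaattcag

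The *Jun* run held TGACATCA with its first base at -45, an element to which JUN and ATF2 are known to bind. This element was present in 2.84% of 32536 promoter sequences of the same length, and among the members also in 1 of the 3 promoters of *Maff*. The *Fos* run held the CRE core at -66 and a TATA box at -33, and the *Atf3* run held the CRE core on the opposite strand at -8. Of the 10 members 9 had a promoter sequence in the table and *Fosl1* was not searched. The CRE core occurred in 4 of these 9 members (*Atf3*, *Batf*, *Fos*, *Maff*) and in 6.50% of all promoters, and the complete CRE in *Maff* and in 1.56% of all promoters. The TATA box was found in 12.3% of all promoters. The AP-1 site itself was in none of the windows of these 9 members and in 6.73% of all promoters. The GFI1 core was found in *Jund* and *Maff* (12.3% of all promoters). Neither the SPI1 site (2.45%) nor the CArG box (1.48%) was in the 250 bases of any of the 9 members searched. Promoter sites farther upstream were not searched. The CRE core lies within the complete CRE, so these counts overlap. A match describes the letters only.

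Which AP-1 genes did each cell type transcribe? In GMP the highest level was that of *Fos*, followed by *Jun*, *Junb*, *Batf*, *Fosl2* and *Fosb*, and the ranges of neighbors in this order did not overlap. *Maff*, *Jund*, *Fosl1* and *Atf3* stood below 1 TPM in every GMP library, in overlapping ranges. In preNeu *Fos* was again highest and *Junb* followed, whereas *Batf*, *Jun* and *Fosl2* overlapped one another. In matNeu *Junb* and *Fos* led with overlapping ranges, *Fosl2* and *Jun* came after them and also overlapped, and *Batf* was next. Below these, *Atf3* and *Jund* overlapped, as did *Fosl1* and *Fosb*, and *Maff* was lowest.

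The summed level of the 10 genes was 226 to 266 TPM in GMP, 111 to 154 TPM in preNeu and 3117 to 5470 TPM in matNeu. The 3 ranges did not overlap, and matNeu replicate 3 had the highest sum. The makeup of the sum also differed between cell types. *Jun* made up 23.7 to 25.1% of it in GMP, 9.03 to 11.9% in preNeu and 2.79 to 3.93% in matNeu. *Junb* made up 17.7 to 19.5%, 15.4 to 22.4% and 46.9 to 56.2%. The ratio of *Junb* to *Jun* was therefore 0.746 to 0.777 in GMP, 1.29 to 2.14 in preNeu and 14.3 to 19.7 in matNeu. The FOS proteins' genes together held 42.6 to 48.4% of the sum in GMP, 51.7 to 65.8% in preNeu and 36.9 to 48.5% in matNeu, where the range overlapped that of GMP. *Batf* made up 9.63 to 12.8% of the sum in GMP and 1.16 to 2.08% in matNeu, although its own level was higher there.

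**Figure D1:**
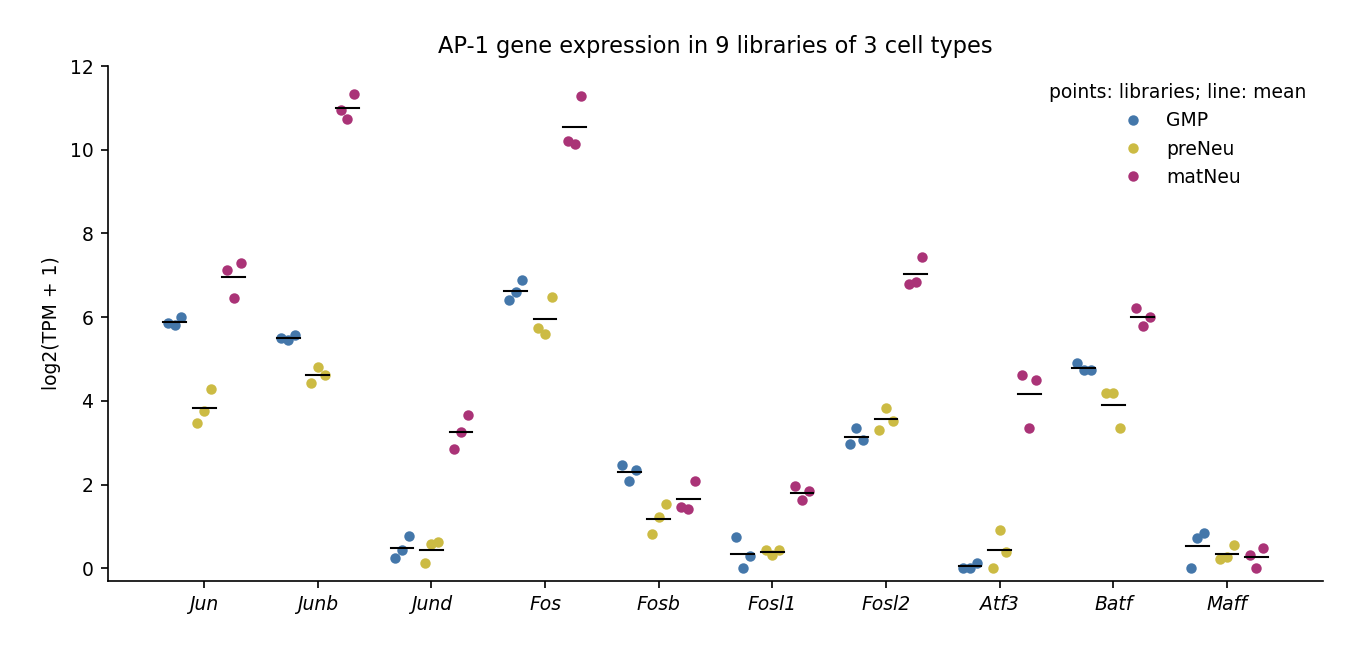
Level of each AP-1 gene as log2(TPM + 1), with 1 point per library, 3 libraries per cell type and a line at their mean. In matNeu *Junb* and *Fos* stand above every other member, and *Maff* stays near 0 in all 9 libraries.

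**Figure D2:**
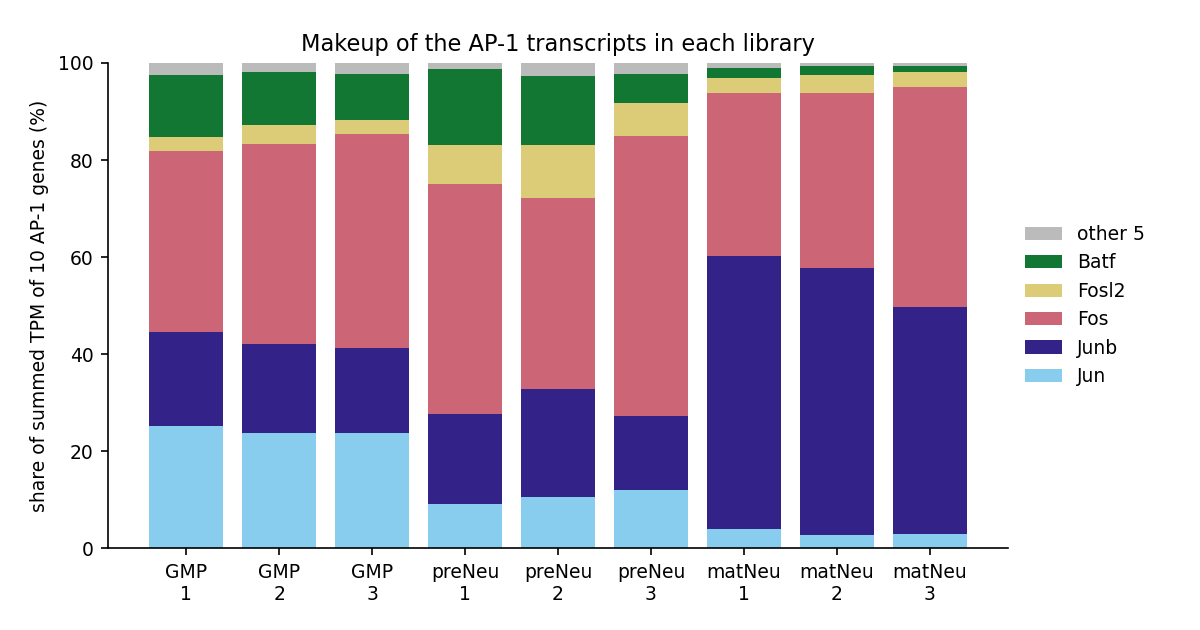
Share of the summed TPM of the 10 AP-1 genes taken by each gene, with 1 bar per library. The share of *Junb* reaches 46.9 to 56.2% in matNeu, and that of *Jun* is lower in preNeu and matNeu than in GMP.

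Differences between cell types were tested by limma on log2(TPM + 1) for the 13061 genes that reached 1 TPM in 3 or more of the libraries. Benjamini-Hochberg adjusted p-values under 0.05 were called. Of the 10 members, 9 passed this filter, *Maff* did not, and *Jund*, *Fosl1* and *Atf3* passed only through their matNeu libraries. A log2 change on this scale understates the change of genes with few TPM. From GMP to preNeu, 4 of the 9 tested members fell (*Jun*, *Junb*, *Fosb*, *Batf*), none rose and 5 were not called, beside 44.3% of all tested genes that were lower and 14.7% that were higher. A fall of 4 of 9 is close to this background. When TPM was rescaled by median of ratios, 2 members fell and 1 rose (*Fosl2*), and 45.1% of all calls between GMP and preNeu were upward in place of 25%. From preNeu to matNeu 8 of 9 rose and none fell, beside 22.9% of all genes higher and 39.8% lower. Between GMP and matNeu 8 of 9 were higher in matNeu and none lower, beside 22.8% of all genes higher and 54.1% lower. The calls of *Jund*, *Fosl1* and *Atf3* follow in part from the filter, since these genes were tested only because they were high in matNeu. Of the other 6 tested members 5 rose from preNeu to matNeu, the exception being *Fosb*. The median log2 change of all genes was -0.52, -0.32 and -0.92 in the 3 comparisons. The comparisons share libraries and are not independent.

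**Figure D3:**
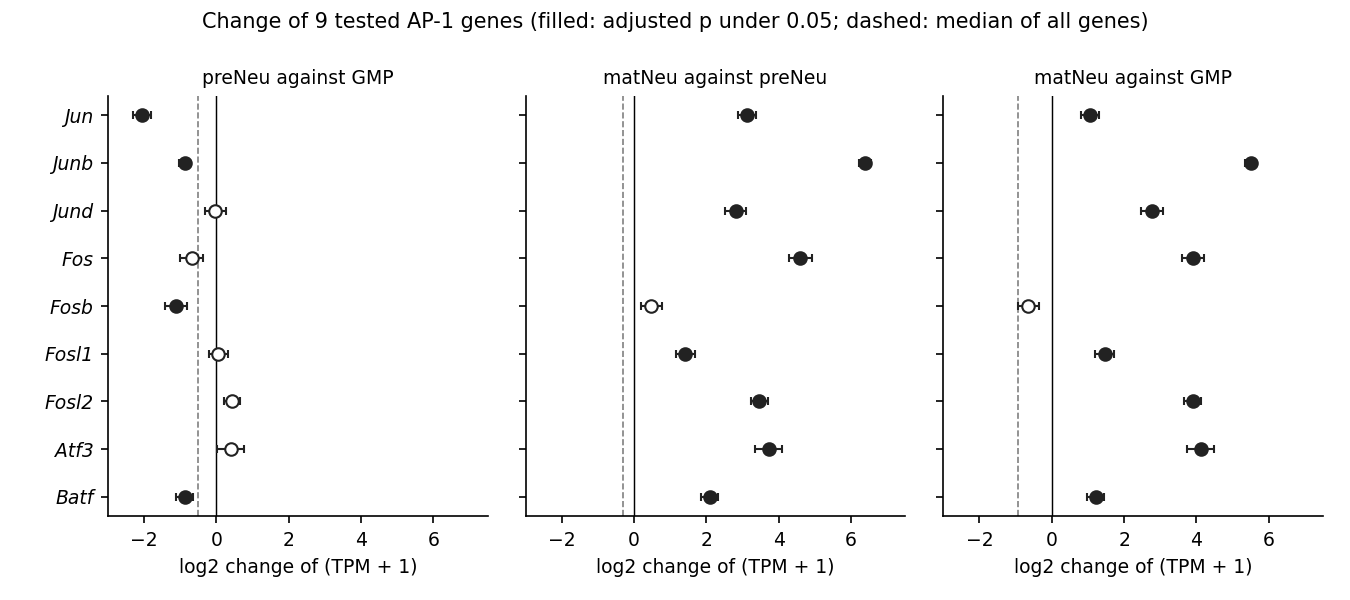
Log2 change of the 9 tested AP-1 genes in each comparison with its standard error from limma, where filled points have an adjusted p under 0.05 and the dashed line is the median of all tested genes. From preNeu to matNeu every member except *Fosb* lies to the right of 2 or, for *Fosl1*, at 1.41.

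Among the JUN genes, *Junb* (ENSMUSG00000052837, chr8:84974484-84978718 on GRCm38, minus strand, 1 exon) changed most. The deposited table gives its transcript type as a processed transcript, whereas *Jun* is listed as protein-coding, and how TPM was summed over transcripts is not stated, so which *Junb* transcripts the values cover is not known. JUNB restrains growth and takes the place of JUN in many inflammatory settings. Its level was 44.1, 42.6 and 47.0 TPM in the GMP libraries, 20.7, 27.1 and 23.7 TPM in preNeu and 1986, 1713 and 2564 TPM in matNeu. The 3 cell types were apart, with preNeu lowest and matNeu highest, and in matNeu *Junb* ranked 57 of 34896 genes against 4364 in GMP. The mean in matNeu was 87.6-fold that in preNeu (log2 change 6.38, SE 0.16, adjusted p = 5.76e-10 by limma) and 46.9-fold that in GMP. The log2 difference between matNeu and GMP was 5.50, and 6.37 when TPM was rescaled by median of ratios. From GMP to preNeu *Junb* fell by 0.88 on the log2 scale (SE 0.16, adjusted p = 0.000797 by limma). *Prdx2*, which overlaps *Junb* on the opposite strand and codes for a peroxide-removing enzyme, moved the other way, from 234 to 305 TPM in GMP to 22.2 to 37.6 in preNeu and 8.78 to 10.4 in matNeu.

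*Jun* (ENSMUSG00000052684, chr4:95049034-95052222, minus strand, 1 exon) codes for the best studied JUN protein, which the kinase JNK phosphorylates. It stood at 56.7, 55.6 and 63.0 TPM in GMP, at 10.002, 12.6 and 18.4 TPM in preNeu and at 139, 87.0 and 156 TPM in matNeu. The cell types did not overlap, and the trough in preNeu was deeper than that of any other tested member. *Jun* fell by 2.06 on the log2 scale from GMP to preNeu (SE 0.25, adjusted p = 5.36e-05 by limma), to 0.234 of its mean. It then rose by 3.12 (SE 0.25, adjusted p = 1.26e-06 by limma), and the net difference between matNeu and GMP was 1.07 (SE 0.25, adjusted p = 0.00244). Under median-of-ratios scaling this net difference was 1.94 (adjusted p = 1.51e-05 by limma).

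*Jund* (ENSMUSG00000071076, chr8:70698949-70700616, plus strand, 1 exon) codes for the JUN protein that resting cells usually hold, and its transcript was listed at low levels here. The values were 0.176, 0.342 and 0.698 TPM in GMP, 0.0928, 0.492 and 0.551 TPM in preNeu and 6.21, 8.50 and 11.7 TPM in matNeu. The matNeu libraries lay above all others, and GMP and preNeu overlapped. The log2 change from preNeu to matNeu was 2.81 (SE 0.30, adjusted p = 1.15e-05 by limma). The longest *Jund* transcript is 67.1% G and C, which is percentile 99.7 among protein-coding genes, and the part of base composition in the low values was not tested.

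Among the FOS genes, *Fos* (ENSMUSG00000021250, chr12:85473890-85477273, plus strand, 4 exons) was the most abundant in every library. It codes for the immediate-early partner of JUN proteins. Its level was 84.4, 96.4 and 117 TPM in GMP, 52.5, 47.7 and 88.9 TPM in preNeu and 1188, 1128 and 2476 TPM in matNeu. MatNeu lay apart from the other cell types, with replicate 3 well above its 2 companions, and GMP and preNeu overlapped. The mean in matNeu was 25.3-fold that in preNeu (log2 change 4.60, SE 0.31, adjusted p = 3.36e-07 by limma). From GMP to preNeu the log2 change was -0.69 (SE 0.31, adjusted p = 0.0790), which was not called. Without preNeu replicate 3 it was -0.96 (adjusted p = 0.0256) and without matNeu replicate 3 it was -0.69 (adjusted p = 0.0231), both called by limma.

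*Fosl2* (ENSMUSG00000029135, chr5:32135801-32157842, plus strand, 4 exons) codes for the FOS-related protein FRA2, which lacks the strong activation domain of FOS. It stood at 6.79, 9.17 and 7.36 TPM in GMP, 8.93, 13.3 and 10.5 TPM in preNeu and 109, 114 and 172 TPM in matNeu. GMP and preNeu overlapped and matNeu was apart from both. *Fosl2* rose by 3.46 on the log2 scale from preNeu to matNeu (SE 0.23, adjusted p = 2.78e-07 by limma), to 12.0-fold its mean in preNeu. The difference between preNeu and GMP was 0.44 (SE 0.23, adjusted p = 0.125). It passed the test, with preNeu higher, at 0.88 (adjusted p = 0.00451) when TPM was rescaled by median of ratios and at 0.84 (adjusted p = 0.00820) when the 100 most abundant genes were left out of the total.

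*Fosb* (ENSMUSG00000003545, chr7:19302696-19310051, minus strand) was the tested member without a call upward. It codes for a close relative of FOS with strong activation domains. The libraries gave 4.56, 3.27 and 4.08 TPM in GMP, 0.750, 1.33 and 1.87 TPM in preNeu and 1.77, 1.67 and 3.28 TPM in matNeu. GMP was apart from preNeu, and matNeu overlapped both. *Fosb* fell by 1.12 on the log2 scale from GMP to preNeu (SE 0.30, adjusted p = 0.00788 by limma), a call that was lost under median-of-ratios scaling (-0.73, adjusted p = 0.0514). The change from preNeu to matNeu was 0.48 (SE 0.30, adjusted p = 0.190) and from GMP to matNeu -0.65 (SE 0.30, adjusted p = 0.0697). Under median-of-ratios scaling the last difference was 0.0077 (adjusted p = 0.982), and without matNeu replicate 3 it was -0.86 and was called (adjusted p = 0.0286 by limma).

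*Fosl1* (ENSMUSG00000024912, chr19:5447547-5455946, plus strand, 4 exons) codes for FRA1, the other FOS protein without a strong activation domain. It was listed at 0.687, 0 and 0.227 TPM in GMP, at 0.361, 0.239 and 0.358 TPM in preNeu and at 2.88, 2.11 and 2.57 TPM in matNeu. Every matNeu library lay above every other library. The log2 change from preNeu to matNeu was 1.41 (SE 0.27, adjusted p = 0.000809 by limma). *Ccdc85b*, which overlaps the gene on the opposite strand, stood at 17.7 to 23.1 TPM in GMP and at 0.666 to 3.54 TPM in matNeu.

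Among the partners, *Atf3* (ENSMUSG00000026628, chr1:191170296-191218039, minus strand, 4 exons) is a stress-induced gene whose protein can repress inflammatory genes. It was listed at 0, 0 and 0.0951 TPM in GMP, at 0, 0.868 and 0.315 TPM in preNeu and at 23.7, 9.26 and 21.5 TPM in matNeu. MatNeu was apart from the other cell types, which overlapped, and within matNeu replicate 2 was lowest. The fitted change on the log2(TPM + 1) scale was 3.73 from preNeu to matNeu (SE 0.37, adjusted p = 6.89e-06 by limma).

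*Batf* (ENSMUSG00000034266, chr12:85686669-85709087, plus strand, 3 exons) codes for a small bZIP protein without an activation domain that pairs with JUN proteins and with IRF factors. The levels were 28.9, 25.6 and 25.6 TPM in GMP, 17.3, 17.2 and 9.25 TPM in preNeu and 73.4, 54.3 and 63.6 TPM in matNeu. The cell types did not overlap. *Batf* fell by 0.88 on the log2 scale from GMP to preNeu (SE 0.24, adjusted p = 0.00819 by limma) and rose by 2.095 from preNeu to matNeu (SE 0.24, adjusted p = 1.73e-05). The fall was not called under median-of-ratios scaling (-0.38, adjusted p = 0.226) or without the 100 most abundant genes (-0.49, adjusted p = 0.131).

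*Maff* (ENSMUSG00000042622, chr15:79346621-79359076, plus strand) codes for a small MAF protein, which binds DNA but cannot activate by itself. It was listed at 0, 0.659 and 0.797 TPM in GMP, 0.159, 0.211 and 0.472 TPM in preNeu and 0.253, 0 and 0.400 TPM in matNeu. The cell types overlapped and no library reached 1 TPM, so the gene was not tested.

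Replicate 3 was the highest of the matNeu libraries for 7 of 10 members (70.0%), for 43.6% of all tested genes and for 22 of 27 immediate-early genes outside AP-1 (81.5%). It was also highest for 5 of 6 matNeu markers and 5 of 6 monocyte and macrophage markers. For B cell markers this was 4 of 5, for dendritic cell markers 3 of 4, and for GMP and preNeu markers 0 of 6 each. Without matNeu replicate 3, 8 of 9 members were still higher in matNeu than in preNeu and 8 of 9 than in GMP. Of all 13061 tested genes, 2794 were then higher in matNeu than in preNeu and 2846 than in GMP. The filter was kept from all libraries, so the calls of *Jund*, *Fosl1* and *Atf3* again follow in part from it. The immediate-early list rose from preNeu to matNeu as the members did, and between GMP and preNeu more of its genes rose than fell. Among the members 4 fell and none rose there, beside 44.3% of all tested genes lower and 14.7% higher. Median-of-ratios scaling gave 2 members lower and 1 higher, so the members' calls change with the scaling. The summed level of the immediate-early list was 362 to 505 TPM in GMP, 781 to 898 in preNeu and 8549 to 14609 in matNeu. Of its genes 2 were listed at 0 in every GMP library and none in matNeu. Of 24 tested genes 20 rose and 2 fell between GMP and matNeu, with a median log2 change of 3.53. From preNeu to matNeu 19 rose and none fell, and from GMP to preNeu 12 rose and 2 fell. *Dusp1*, a phosphatase that switches off MAP kinases, had means of 38.8, 44.0 and 4491 TPM in GMP, preNeu and matNeu (log2 change from preNeu to matNeu 6.57, SE 0.30, adjusted p = 2.10e-08). *Zfp36*, whose protein destabilizes cytokine mRNAs, had 21.6, 50.3 and 1009 TPM, and *Egr1*, a zinc finger factor, had 5.67, 2.08 and 100 TPM. In contrast to *Jun* and *Junb*, *Klf6* was higher in preNeu than in GMP (28.6 and 176 TPM, log2 change 2.58). Heat shock genes moved the other way, with 9 of 9 tested genes lower in matNeu than in GMP, beside 54.1% of all tested genes. Their summed levels were 9381 to 9832 TPM in GMP, 2383 to 3369 in preNeu and 1306 to 1673 in matNeu. Most of these sums was *Hspa8* (means of 5296, 1900 and 979 TPM). *Hspa1a* had 9.03, 1.08 and 1.56 TPM, and *Hspa1b* and *Hspb1* were not tested. Whether handling of the cells had a part in the levels of the AP-1 genes was not tested.

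Other bZIP genes, which can pair with or compete with AP-1 proteins, did not move in 1 direction. Of 19 tested, 7 were higher and 6 lower in matNeu than in GMP. *Ddit3*, the stress gene that codes for CHOP, had means of 20.7, 12.2 and 113 TPM in GMP, preNeu and matNeu. *Mafk*, a small MAF gene like *Maff*, had 33.8, 11.1 and 65.0 TPM, the same order of cell types as *Jun*. *Atf7*, which is related to ATF2, fell from 86.0 to 34.2 and 31.9 TPM. *Xbp1*, a factor of the unfolded protein response, had 466, 449 and 179 TPM and was lower in matNeu than in preNeu (log2 change -1.34, SE 0.16).

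Genes that act upstream of AP-1, the MAP kinases with their activating kinases and the factors they phosphorylate, were divided. Of 25 tested, 8 were higher and 8 lower in matNeu than in GMP, and 10 were higher and 8 lower in preNeu than in GMP. *Mapk13*, which codes for the p38 delta kinase, had means of 4.59, 234 and 245 TPM in GMP, preNeu and matNeu (log2 change from GMP to preNeu 5.40, SE 0.18, adjusted p = 8.17e-09). *Map3k8*, the kinase that starts ERK signaling in myeloid cells after Toll-like receptor signals, had 5.58, 23.8 and 49.6 TPM. *Map2k6*, an activator of p38 kinases, had 18.5, 14.5 and 0.637 TPM. MEF2 proteins help drive *Jun*. *Mef2c* (99.6, 12.1 and 15.8 TPM) and *Mef2d* (60.9, 7.15 and 30.2 TPM) were highest in GMP. *Mef2d* was lowest in preNeu, as *Jun* was, and rose from preNeu to matNeu (log2 change 1.85, adjusted p = 0.000198 by limma). For *Mef2c* this change was not called (0.25, adjusted p = 0.506 by limma), and its preNeu and matNeu ranges overlapped. *Mef2a* went the other way, with means of 19.0, 36.1 and 66.3 TPM (log2 difference between matNeu and GMP 1.75, adjusted p = 1.15e-05 by limma).

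Genes known as AP-1 targets in other cells were mostly higher in matNeu. Of 12 tested, 9 were higher and 2 lower in matNeu than in GMP, and 8 were higher and none lower in matNeu than in preNeu. *Mmp9*, which codes for gelatinase, had means of 1.01, 401 and 6539 TPM in GMP, preNeu and matNeu. *Il1b*, the cytokine interleukin-1 beta, had 1.34, 0.372 and 1829 TPM, and *Ptgs2*, the inducible cyclooxygenase, 0.0261, 0.652 and 294 TPM. *Mmp9* was already high in preNeu, where *Jun* and *Junb* were lowest. *Mmp9* and *Il1b* are also matNeu markers and were chosen as such, so that their direction adds nothing independent.

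The genes with the pattern most like *Junb* over the 9 libraries, by Pearson r of log2(TPM + 1), were *Sgms1*, *Gpr137b-ps* and *Rab11fip4*, each with r of 0.997 to 0.998. For *Fos* they were *Tspyl1*, *Dmwd* and *Klhl25*, with r of 0.994 to 0.995, and for *Jun* they were *Srsf5*, *Ppp1r15a* and *Polr1a*, with r of 0.992 to 0.994. The 9 libraries form 3 clusters by cell type, so r reflects mostly the order and spacing of the cell types. *Ppp1r15a*, whose protein restores translation after stress, had means of 18.5, 2.18 and 49.1 TPM in GMP, preNeu and matNeu.

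Where did CHD4 lie at these genes in GMP? WT GMPs had 15 CHD4 peaks in or within 10 kb of 3 members, with 7 at *Atf3*, 6 at *Jun* and 2 at *Fos*, and none at the other 7. A CHD4 peak within this distance was found for 32.4% of 21851 protein-coding genes and for 42.8% of those with at least 1 TPM in GMP, so 3 of 10 members is near the background. The nearest WT peak was 13.1 kb from *Fosl2*, 38.5 kb from *Batf* and 73.8 kb or more from *Maff*, *Jund*, *Junb*, *Fosl1* and *Fosb*. The peaks at members had fold enrichments over background of 4.09 to 13.7, with a median of 6.62, against a median of 7.72 for all 35790 peaks of the list.

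At *Jun* the strongest peak, chr4:95054370-95055086 with a fold enrichment of 13.7, had its summit 2641 bp upstream of the start. Peaks with fold enrichments of 10.9 and 10.3 followed 1183 and 1690 bp upstream. Within the gene, which has a single exon, 1 peak of 4.09 covered the start, 1 of 4.25 lay in the 5′ UTR and 1 of 8.61 in the coding sequence. At *Fos* both peaks lay upstream, at 5083 bp (chr12:85468373-85469078, fold enrichment 9.11) and 4496 bp (fold enrichment 4.76). At *Atf3* 6 of the 7 peaks were in introns and 1 lay 9844 bp upstream of the distal start, and their fold enrichments were 4.49 to 7.76. The nearest of them to the start used by the promoter shown above was 788 bp downstream of it, in an intron.

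To show the DNA under CHD4, the 101 bases centered on the summit of the strongest peak at *Jun* (chr4:95054813-95054913) and at *Fos* (chr12:85468757-85468857) are given on the plus strand of GRCm38.
Jun CHD4 summit: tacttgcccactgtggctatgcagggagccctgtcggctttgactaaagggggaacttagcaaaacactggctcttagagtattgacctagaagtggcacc
Fos CHD4 summit: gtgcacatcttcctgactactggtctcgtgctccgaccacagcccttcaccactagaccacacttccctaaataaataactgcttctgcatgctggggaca

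Neither run has capitals because none of the motifs named above was in it, the CArG and TATA boxes not being searched here, and the same was true of all 15 summit windows at members. Over 35728 windows of the whole list the AP-1 site was found in 5.53%, the GFI1 core in 5.62% and the SPI1 site in 7.56%.

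In *Gfi1*-/- GMPs no CHD4 peak lay in or within 10 kb of any member, and 0 of the 15 WT peaks had a counterpart. If the peaks were independent, counting error alone would allow a share of up to 20.0%. The peaks lie close together at 3 members, so they are not independent and the limit may be higher. The nearest *Gfi1*-/- peaks were 31.6 kb from *Atf3*, 36.7 kb from *Jun* and 38.7 kb from *Fos*. Over the whole list 18.5% of WT peaks overlapped a *Gfi1*-/- peak, but in the range of fold enrichment of the members' peaks the share was 4.35% (1167 of 26815), so that a count of 0 of 15 does not stand apart from peaks of this strength. When each WT peak was instead given to the protein-coding gene with the nearest start, 90 belonged to members and 19 of them had a counterpart. These were 16 of 50 at *Jun*, 2 of 13 at *Fos* and 1 of 18 at *Atf3*, none of 8 at *Fosl2* and not the 1 at *Batf*. The peaks with a counterpart lay 37.0 to 251 kb from the start and had WT fold enrichments of 8.91 to 48.3. With 1 library per genotype there is no replicate check, and the *Gfi1*-/- list was shorter (7316 peaks), so that absence of a peak does not measure bound CHD4.

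**Figure D4:**
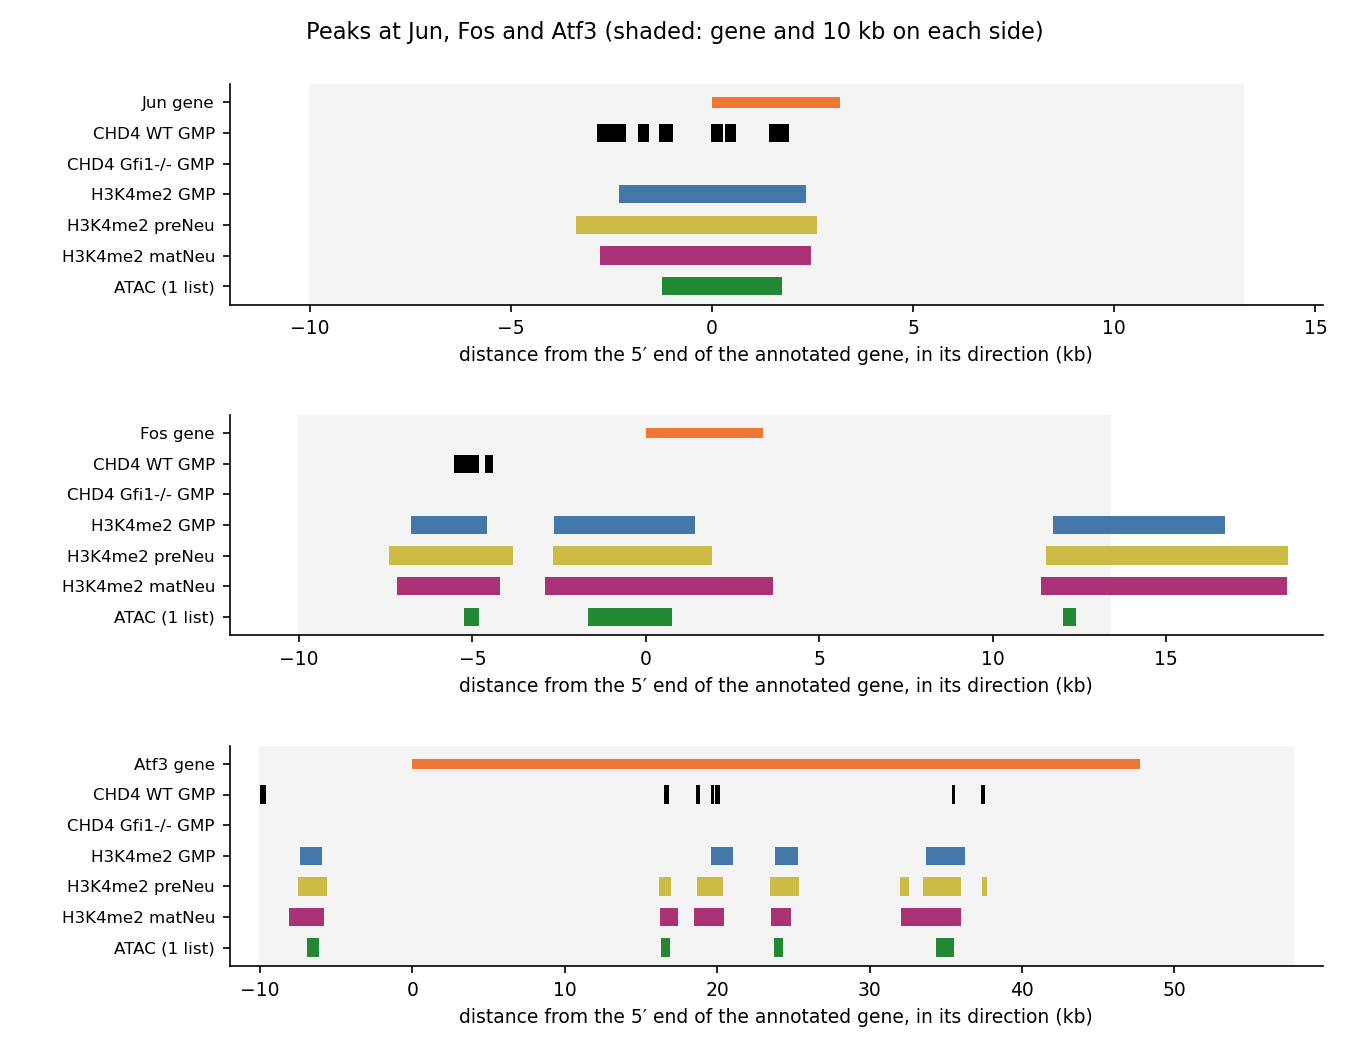
Peaks in or within 10 kb of *Jun*, *Fos* and *Atf3* by distance in kb from the 5′ end of the annotated gene, with 1 row per list and the gene in orange. CHD4 peaks of WT GMPs (15 in all) have no counterpart in the empty *Gfi1*-/- row, and most lie inside H3K4me2 peaks.

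H3K4me2 was present at all 10 members in all 3 cell types, also at *Maff* and at genes with less than 1 TPM in GMP. In each list a peak covered a start of each member as annotated by GENCODE. For *Jund* this start (chr8:70698949) lies downstream of the RefSeq promoter searched for motifs, which ended at chr8:70697738. No GMP peak covered that end. Over all protein-coding genes a start was covered for 54.1% in GMP, 58.5% in preNeu and 56.3% in matNeu. The 10 members had 32 peaks in GMP, 38 in preNeu and 33 in matNeu. At *Junb*, *Jund*, *Fosb*, *Fosl1*, *Atf3* and *Maff* other protein-coding genes lie within 10 kb, so some peaks may lie at those genes. Of the 15 CHD4 peaks 11 overlapped an H3K4me2 peak of GMP, 14 of preNeu and 13 of matNeu, and 7 overlapped an ATAC-seq peak. At *Jun* and *Fos* all 8 CHD4 peaks overlapped H3K4me2 in every cell type.

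The called H3K4me2 peaks over the starts of *Junb* and *Fosl2* were wider at each later stage. At *Junb* the peak was 5653 bp wide in GMP, 8714 bp in preNeu and 12166 bp in matNeu, and at *Fosl2* 7093, 9905 and 13283 bp. Their fold enrichments did not step up in this order, with 4.23, 13.6 and 8.05 at *Junb* and 3.69, 14.3 and 7.46 at *Fosl2*. By fold enrichment within each list, the *Junb* peak stood at percentiles 94.2, 97.3 and 83.3. The *Fosl2* peak stood at percentiles 82.7, 98.1 and 79.5. The *Junb* peak of matNeu spanned 2 separate peaks of preNeu (11013 bp in sum) and 3 of GMP (8797 bp), so that part of its width came from calls that were joined. All H3K4me2 peaks in and within 10 kb of *Junb* covered 13371 bp in GMP, 16159 bp in preNeu and 15656 bp in matNeu, which was less in matNeu than in preNeu. At *Fos* it was 4057, 4581 and 6575 bp and at *Atf3* 2523, 2495 and 3982 bp, so that matNeu had the widest peak. The *Atf3* peak of matNeu spanned 2 peaks of preNeu (3080 bp in sum). At *Jund* the peak was 2488 bp in GMP, 7452 bp in preNeu and 6685 bp in matNeu. It was wider in preNeu than in GMP, while the transcript was listed below 1 TPM in both. The preNeu peak joined 2 separate peaks of GMP that together covered 3928 bp, a ratio of 1.90 in place of 2.995 for the start peaks alone. At *Jun* it was 4662, 5986 and 5257 bp, and the peak was widest in preNeu, where *Jun* had its lowest level. At *Maff* the widths were 1797, 1657 and 1442 bp. *Fosb*, *Fosl1* and *Batf* had peaks of 1797 to 3289 bp in all cell types, with the widest in preNeu.

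Lists differ in strength, with a median fold enrichment of 2.89 in GMP, 4.55 in preNeu and 3.78 in matNeu, and in the median width of all peaks (909, 1223 and 1136 bp), so widths are read against all genes. From GMP to matNeu the start peak was at least 1.5-fold wider at 5 of 10 members (*Junb*, *Jund*, *Fos*, *Fosl2*, *Atf3*) and at 21.9% of 10788 genes with a start peak in both lists. From GMP to preNeu it was so at 2 members (*Junb*, *Jund*) and 36.6% of genes, and from preNeu to matNeu at 1 member (*Atf3*) and 2.72% of genes. In an alternative chosen after seeing the data, the widths of all peaks linked by overlap to the start peak were summed in each list. The sum was then at least 1.5-fold larger in matNeu than in GMP at 4 of 10 members (*Jund*, *Fos*, *Fosl2*, *Atf3*, with *Junb* at 1.38) and 18.9% of genes. From GMP to preNeu it was so at 1 member (*Jund*) and 33.3% of genes, and from preNeu to matNeu at 0 members and 1.29% of genes. The 5 members with start peaks at least 1.5-fold wider in matNeu than in GMP, linked peaks not being summed, were those whose transcripts were higher by a log2 change of at least 2. Among other genes with such a change 74.1% of 790 had a start peak at least 1.5-fold wider, against 48.9% of 1215 genes with a smaller rise and 10.7% of 5586 genes that fell. Of the 5 members, *Jund* and *Atf3* passed the expression filter only through their matNeu libraries, so their place in this match follows in part from the filter. Each list comes from 1 library, and no test was made.

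**Figure D5:**
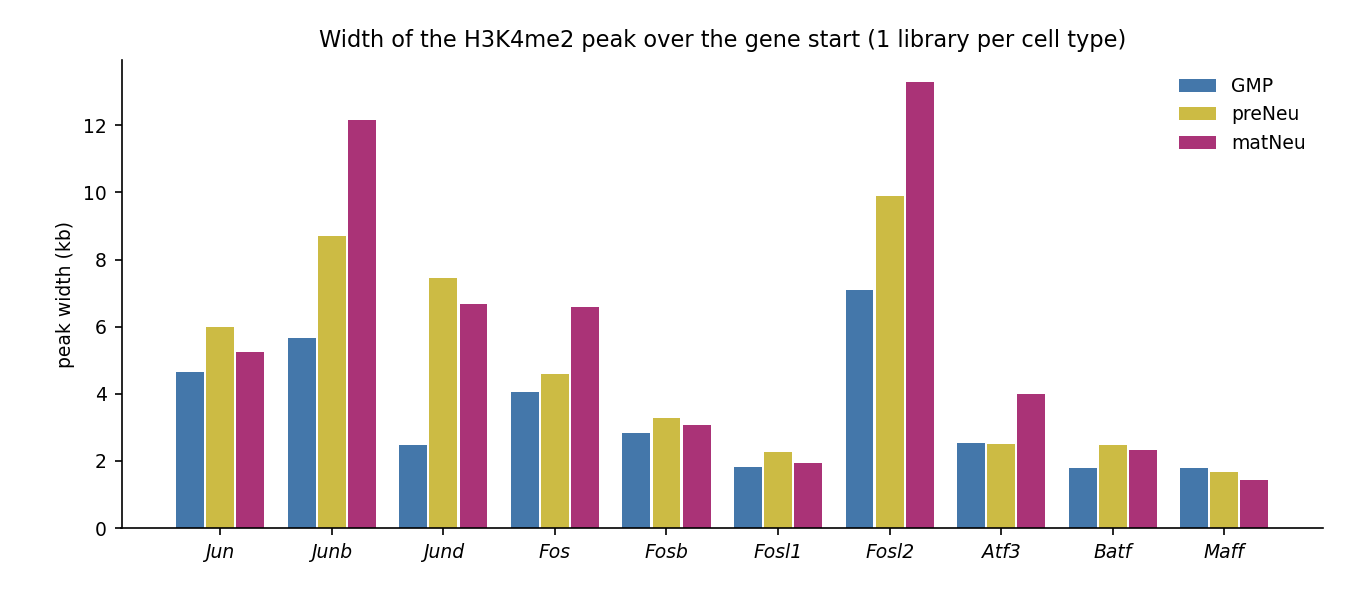
Width in kb of the H3K4me2 peak over the start of each AP-1 gene, with 1 bar per cell type and 1 library each. The bars of *Junb* and *Fosl2* step up from GMP to preNeu and matNeu, and those of *Maff* step down, while the matNeu peak of *Junb* spans 2 peaks of preNeu.

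The ATAC-seq list had 21 peaks at 9 members, none at *Maff*, and in 6 members a peak covered a start (*Jun*, *Junb*, *Jund*, *Fos*, *Fosl2*, *Atf3*). The strongest by fold enrichment covered the start of *Jund* (chr8:70698384-70700851, 7.31), and the next lay 7201 bp upstream of *Junb* (6.07) and 5023 bp upstream of *Fos* (5.88). The latter overlapped the stronger CHD4 peak upstream of *Fos*. *Fosl1* and *Batf* each had 1 peak, at 13183 bp and 18762 bp after their starts. The *Fosl1* peak lay outside the gene, and *Ccdc85b*, *Ctsw* and *Fibp* also lie in or within 10 kb of *Fosl1*. The list could not be assigned to preNeu or matNeu, and no change between them was derived.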

How the data were processed

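Per the labels, RNA-seq, ChIP-seq and ATAC-seq were made from sorted mouse bone marrow cells. The authors deposited TPM per gene, without stating how TPM was computed, so no count test was run. For each peak they deposited a fold enrichment (a linear ratio), a −log10 q-value and a score that equals 10 times that value; score was not used. The submitters' processing notes name FastQC 0.11.5, MultiQC 1.6, Trimmomatic 0.36, BWA 0.7.17, MACS2 2.1.0 and kallisto 0.44.0 without their roles. Peak positions fitted GRCm38. The GFI1 and H3K4me3 lists had 3105 and 2179 peaks beyond mouse chromosome ends and were not used here.

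In R 4.3.3, limma 3.58.1 was fitted to log2(TPM + 1) of all 9 libraries with a term for cell type and a variance trend, and tested on simulated data. Peaks were read with Python 3.11.15 and annotated with GENCODE M21, and shared peaks overlapped by at least 1 bp. Promoter sequences came from RefSeq (GRCm38.p6). All 10 members were named, with at most 4 genes per list and comparison that passed the test by size of change and the 3 genes most like *Junb*, *Fos* and *Jun*. The members and lists were chosen with earlier results of these data known. An exact permutation test of 3 against 3 libraries has a smallest p of 0.1. Alternatives were other pseudocounts, filters, scalings, fits and peak rules, and leaving out each library.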

Additional observations from a re-analysis of the deposited data

How the results depend on the processing

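Of 480 values of single members under the alternatives, 455 kept their direction and their side of the threshold, 9 gained a call, 10 lost one and 6 changed sign without a call on either side. These 6 were *Jund* between GMP and preNeu (-0.03, and 0.08 to 0.13 under both other scalings and without GMP replicate 3 or preNeu replicate 1), *Fosl1* there (0.05, and -0.13 without GMP replicate 2) and *Fosb* between GMP and matNeu (-0.65, and 0.0077 under median of ratios). Leaving out each library in turn gave 6948 to 7845 called genes for preNeu against GMP, 7683 to 8202 for matNeu against preNeu and 9659 to 10043 for matNeu against GMP, where the full set gave 7706, 8197 and 10041. Leaving out libraries left 0 to 1 members lower in matNeu than in GMP, and the 1 was *Fosb* without matNeu replicate 3. The same gene was called lower (1 member) without the variance trend. The cause was not tested.

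Between GMP and preNeu, median-of-ratios scaling gave 1 member higher and 2 lower, and scaling without the 100 most abundant genes gave 1 higher. These scalings moved the median change of all genes by 0.43 and 0.33 there. For matNeu against preNeu median-of-ratios scaling moved it by 0.25 and the upward share of calls from 36.5% to 47.2%, and for matNeu against GMP by 0.72 and from 29.6% to 45.2%. Scaling without the 100 most abundant genes gave 40.6% upward calls between GMP and preNeu. *Fosb* was also called higher in matNeu than in preNeu (0.74, adjusted p = 0.0404 by limma) under median of ratios. Requiring a log2 change above 1, which is stricter by construction, left 2582, 3898 and 6510 called genes, with 1 member lower between GMP and preNeu and 5 higher between GMP and matNeu.

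The replicate numbers shared by the groups did not pair the libraries, since deviations of same-numbered libraries correlated at -0.04 to 0.12. With the replicate number as a block 7652, 8142 and 10032 genes were called, and *Fos* was called lower in preNeu than in GMP (-0.69, adjusted p = 0.00616). A fit of the compared groups alone also called it (adjusted p = 0.0499).

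CHD4 peaks given to the nearest start numbered 90, of which 19 had a *Gfi1*-/- peak. A −log10 q-value of at least 5 left 15 H3K4me2 peaks at members in GMP and 10 ATAC-seq peaks. Within 2 kb there were 19 H3K4me2 peaks in GMP, 25 in preNeu and 12 ATAC-seq peaks, which follows from the smaller window. Summing the widths of linked H3K4me2 peaks left 1 member wider by at least 1.5-fold from GMP to preNeu in place of 2, and 0 from preNeu to matNeu in place of 1. Depth is unknown for all files.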
